A study of Mus musculus with 6 samples.

Results

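A set of 8 receptor genes of the neurotrophin and GDNF families was examined in dorsal root ganglia (DRG) of mice with a lateral ankle sprain (LAS) and of sham mice. They were taken by gene symbol, with no threshold on a measured value, and all 8 were found among the 22064 gene rows of the expression table, 19306 of which hold a value. They are Ntrk2, Ntrk3, Ngfr, Ret, Gfra1, Gfra2, Gfra3 and Sort1. RNA came from ipsilateral lumbar DRG (levels L3–5) on day 14 in 3 LAS and 3 sham libraries, all of wild-type genotype. In LAS mice the anterior talofibular and calcaneofibular ligaments of the ankle were cut, while sham mice had the skin incision with both ligaments left whole. The study used C57BL/6 mice 6 to 8 weeks old of both sexes, and the sources used here do not give the sex of these libraries or how many animals each one holds. Each library is whole ganglia, so neurons that reach the ankle are mixed with all other cells, and fewer cells of a type cannot be told apart from less RNA per cell.

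Neurotrophins and GDNF family ligands are secreted by target tissue, glia and some neurons, and they keep sensory neurons alive in development and tune their excitability later. The neurotrophins signal through Trk receptor kinases and through p75, while the GDNF family ligands bind a GFRα co-receptor on the cell surface, which then engages the kinase RET. In the DRG the receptors mark neuron classes: TrkC proprioceptors, TrkB and RET low-threshold mechanoreceptors, GFRα2 and RET many non-peptidergic nociceptors, and GFRα3 many peptidergic nociceptors. The question put to the data was whether transcript levels of these receptors differ between LAS and sham ganglia.

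None of the 8 receptors differed between LAS and sham libraries beyond the spread between replicates. Their log2 fold changes lay between -0.07 and 0.08, with 4 higher and 4 lower, and in each of the 8 genes the LAS and sham values overlapped. For all 8 genes the 95% interval of the difference lay within a 1.5-fold change in either direction. The widest was that of Gfra3, with a fold of 0.740 to 1.24. By limma on log2(FPKM + 0.1), 0 of the 8 members and 0 of 14006 tested genes (0%) passed an adjusted p of 0.05 with a fold of at least 1.5. An unadjusted p of at most 0.05 was reached by 0 of the 8, against 2.22% of all tested genes higher (311 genes) and 1.31% lower (184 genes). The groups did not overlap in 0 of the 8, against 5.89% of tested genes higher and 3.81% lower in LAS libraries.

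**Figure D1:**
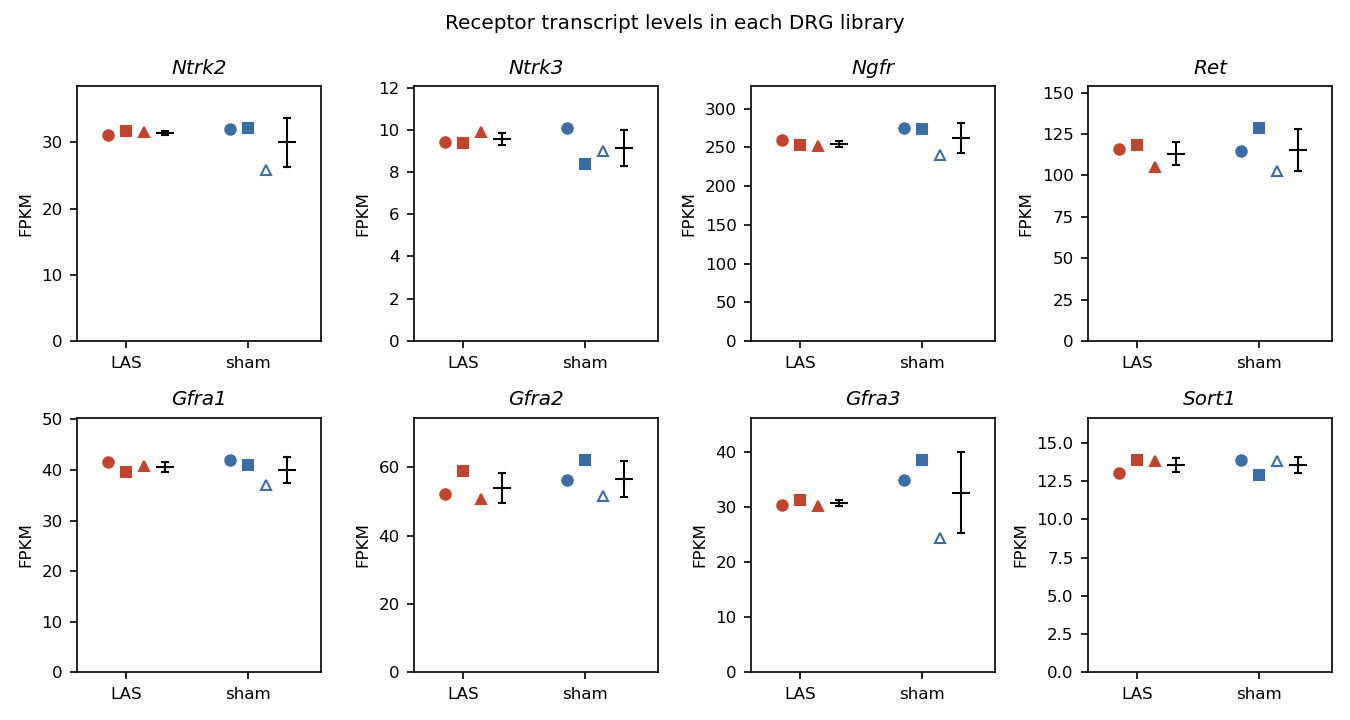
FPKM (y axis, from 0) of the 8 receptors in the 3 LAS libraries (left, red) and the 3 sham libraries (right, blue); circles, squares and triangles are replicates 1, 2 and 3, the open triangle is sham replicate 3, and the black mark is the group mean with its SD (n = 3). The groups overlap in every panel, and sham replicate 3 is the lowest library for Ntrk2, Ngfr, Ret, Gfra1 and Gfra3.

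The library least like the rest was sham replicate 3, whose mean correlation with them was 0.969, against 0.984 to 0.986 for each of the other 5. The libraries held 17178 to 17413 genes above 0 FPKM. Uchl1, a ubiquitin hydrolase abundant in neurons and used as a check of the tissue, was at 2170 ± 45.1 FPKM in LAS and 2196 ± 125 FPKM in sham libraries (SD, n = 3 each). Sham replicate 3 held the highest level of all 13 tested skeletal muscle genes, all 14 genes of bone marrow myeloid cells and all 9 genes of red cells. The share of all tested genes that were highest there was 33.4%. Acta1, skeletal muscle actin, was at 7.86 to 61.9 FPKM in LAS libraries, against 8.94 and 60.8 FPKM in sham replicates 1 and 2 and 523 FPKM in sham replicate 3. S100a8, which neutrophils make in abundance, was at 26.7 to 109 FPKM in LAS libraries, against 17.7 and 24.3 FPKM in sham replicates 1 and 2 and 550 FPKM in sham replicate 3. Summed over 15 neuronal marker genes, levels were even, at 10845 to 11386 FPKM in LAS and 11048 to 11280 FPKM in sham libraries. All 8 tested leptomeningeal genes were higher in LAS libraries (median log2 fold change 0.62, and 0.71 without sham replicate 3), 2 of them at an unadjusted p of at most 0.05 with no overlap, and 0 after adjustment by limma. Their sum was highest in LAS replicate 2, at 1112 FPKM, of which Ptgds, a prostaglandin synthase, made up 1073 FPKM. Without sham replicate 3, all 14 bone marrow myeloid genes were higher in LAS libraries (median log2 fold change 1.46). Each of them had an unadjusted p of at most 0.05 from limma. All 9 red cell genes were also higher there (median 0.56), 5 of them at that p, against 6.45% of all tested genes. Of the 13 muscle genes, 11 were higher and 2 lower. Over all tested genes in that comparison, 8139 were higher and 5867 lower, with a median log2 fold change of 0.02. The part of leptomeningeal, myeloid, red and muscle cells in the receptor values was not tested. The difference of each receptor is therefore given with and without sham replicate 3, and its part in them is shown only by that comparison.

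The receptors differed widely in level, and the order was nearly the same in all 6 libraries. FPKM is scaled to gene length, so levels of different genes can be set side by side. Ngfr was highest at 259 ± 13.2 FPKM (SD over 6 libraries), above 98.6% of tested genes. Ret followed at 114 ± 9.25 FPKM, then Gfra2 at 55.2 ± 4.57 FPKM and Gfra1 at 40.3 ± 1.81 FPKM. Each of these was above the next in 6 of 6 libraries. Gfra3 at 31.6 ± 4.74 FPKM and Ntrk2 at 30.7 ± 2.45 FPKM did not differ beyond their spread: Gfra3 was the higher of the pair in 2 of 6 libraries, sham replicates 1 and 2. Sort1 at 13.5 ± 0.450 FPKM and Ntrk3 at 9.36 ± 0.616 FPKM were the lowest, and Ntrk3 lay near the middle of all tested genes, at percentile 51.5.

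Ntrk2 encodes TrkB, the kinase receptor for BDNF and neurotrophin 4, and Ntrk3 encodes TrkC, the receptor for neurotrophin 3. Ntrk2 was at 31.1, 31.7 and 31.6 FPKM in LAS replicates 1 to 3, against 32.1, 32.1 and 25.8 FPKM in sham replicates 1 to 3. The 3 LAS values were nearly equal, and they lay between sham replicate 3 and the other two sham libraries. Its log2 difference between the groups was 0.08 ± 0.092 (SE; limma adjusted p = 1.00), and without sham replicate 3 it was -0.03 (adjusted p = 0.87 from limma). In that smaller comparison the LAS values all lay below both sham values, by 1.93% on average. Ntrk2 also has kinase-lacking transcripts, made by glia among other cells, and a gene-level value does not separate them from the full-length receptor.

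Ntrk3 was at 9.43, 9.35 and 9.91 FPKM in LAS libraries, against 10.1, 8.37 and 9.01 FPKM in sham libraries. The sham libraries held both its highest and its lowest value. The log2 difference between the groups was 0.07 ± 0.083 (SE; limma adjusted p = 1.00), and it was 0.06 without sham replicate 3. Without sham replicate 1 it was 0.14 and without sham replicate 2 it was 0.006. In the comparison without sham replicate 1 the LAS values all lay above the sham values for Ntrk3, 1 of the 8 receptors, against 10.8% of all tested genes higher and 8.21% lower without overlap. Markers of low-threshold mechanoreceptors and proprioceptors, the classes that carry TrkB and TrkC, gave 0 of 19 tested genes at an unadjusted p of at most 0.05, with a median log2 fold change of 0.03, against 0.004 over all tested genes. One of them, Pvalb, a calcium-binding protein of proprioceptors that muscle also makes, was at 55.9 to 90.6 FPKM in LAS libraries, against 65.6 and 75.7 FPKM in sham replicates 2 and 1 and 243 FPKM in sham replicate 3.

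Ngfr encodes p75, which binds all neurotrophins and, with sortilin, their uncleaved precursors. It was at 259, 253 and 252 FPKM in LAS libraries, against 275, 273 and 240 FPKM in sham libraries. The LAS values sat together between sham replicate 3 below and sham replicates 1 and 2 above. Its log2 difference between the groups was -0.04 ± 0.070 (SE; limma adjusted p = 1.00). Without sham replicate 3 the groups did not overlap, and the log2 fold change was -0.10 (95% interval -0.20 to -0.01, unadjusted p = 0.040, adjusted p = 0.47 from limma). Without that library the groups did not overlap for 3 of the 8 receptors, all lower in LAS libraries (Ntrk2, Ngfr and Gfra3), and 2 of them (Ngfr and Gfra3) reached an unadjusted p of at most 0.05. In that comparison 11.3% of all tested genes were lower and 17.6% higher with groups that did not overlap, and 3.72% were lower and 6.45% higher at an unadjusted p of at most 0.05.

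Besides neurons, p75 is made by Schwann cells and satellite glia, so the markers of those cells are given beside it. Of 14 tested satellite glia genes, 5 lay above and 9 below the sham level (median log2 fold change -0.01), and of 14 Schwann cell genes 8 lay above and 6 below it (0.02, and 0.05 without sham replicate 3). Summed satellite glia markers were at 3423 to 3573 FPKM in LAS libraries, against 3597 to 3882 FPKM in sham libraries. Most of that sum was Apoe, with 2279, 2420 and 2378 FPKM in LAS replicates 1 to 3. Its sham values were 2508, 2446 and 2612 FPKM. With each gene weighing equally, the mean log2 level of the satellite glia list overlapped between the groups. Its deviations were -0.06, -0.02 and 0.02 for LAS, against 0.05, -0.03 and 0.05 for sham replicates 1 to 3. Summed Schwann cell markers were lowest in LAS replicate 1. Single genes of each list stood further off. Fabp7, a fatty acid binding protein of satellite glia, was at 80.7, 68.3 and 80.8 FPKM in LAS libraries, against 116, 121 and 156 FPKM in sham libraries (log2 fold change -0.77, standard error 0.13, adjusted p = 1.00 from limma). Egr2, a transcription factor of myelinating Schwann cells, had a log2 fold change of -0.88 (adjusted p = 0.86 from limma). The part of glial cells in the Ngfr values was not tested.

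Sort1 encodes sortilin, a sorting receptor that pairs with p75 at the cell surface and also moves neurotrophins inside the cell. It was at 13.0, 13.9 and 13.8 FPKM in LAS libraries, against 13.9, 12.9 and 13.8 FPKM in sham libraries. These were the steadiest values of the 8 genes, with a residual SD of 0.054 on the log2 scale, against a median of 0.124 over all tested genes. The log2 fold change was 0.003 (95% interval -0.14 to 0.15, adjusted p = 1.00 from limma), and 0.02 with sham replicate 3 left out.

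Ret encodes the kinase that carries the signal of all GDNF family ligands. It was at 116, 118 and 105 FPKM in LAS libraries, against 115, 128 and 103 FPKM in sham libraries. All LAS values lay between the lowest and the highest sham value, those of sham replicates 3 and 2. Its log2 difference between the groups was -0.02 ± 0.092 (SE; limma adjusted p = 1.00), and -0.10 without sham replicate 3 (adjusted p = 0.66 from limma).

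Gfra1 encodes the co-receptor for GDNF. It was at 41.6, 39.7 and 40.7 FPKM in LAS libraries, against 42.0, 41.0 and 37.0 FPKM in sham libraries. Sham replicate 3 was the lowest library, and the other 5 were close together. The log2 difference between the groups was 0.03 ± 0.064 (SE; limma adjusted p = 1.00), and -0.03 without sham replicate 3.

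The upstream sequences of Ntrk2, Ngfr and Gfra1 are shown. They are the 3 members taken from the promoter table used here (RefSeq, GRCm38.p6), and promoters of the other members are not shown. Each run is the 250 bases before the annotated start, 5′ to 3′ on the gene's strand, with GC boxes (GGGCGG on either strand) in capitals. The windows are chr13:58806319-58806568 (+) for Ntrk2, chr11:95587699-95587948 (−) for Ngfr and chr19:58455399-58455648 (−) for Gfra1.
Ntrk2: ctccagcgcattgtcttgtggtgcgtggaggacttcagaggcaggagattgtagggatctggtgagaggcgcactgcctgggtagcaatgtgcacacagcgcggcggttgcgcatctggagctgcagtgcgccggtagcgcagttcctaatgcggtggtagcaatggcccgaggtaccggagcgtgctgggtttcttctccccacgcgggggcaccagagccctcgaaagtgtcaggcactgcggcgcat
Ngfr: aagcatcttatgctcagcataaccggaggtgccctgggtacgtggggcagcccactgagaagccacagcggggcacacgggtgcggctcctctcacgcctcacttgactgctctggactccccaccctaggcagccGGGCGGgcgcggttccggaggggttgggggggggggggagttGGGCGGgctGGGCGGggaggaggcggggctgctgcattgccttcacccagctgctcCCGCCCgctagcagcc
Gfra1: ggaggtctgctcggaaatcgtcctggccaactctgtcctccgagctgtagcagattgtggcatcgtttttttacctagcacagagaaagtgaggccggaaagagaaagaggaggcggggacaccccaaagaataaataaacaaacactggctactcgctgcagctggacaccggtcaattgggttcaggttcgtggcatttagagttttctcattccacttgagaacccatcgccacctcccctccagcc
Ngfr, the most abundant member, had 4 GC boxes and a GC content of 70.4%, while Ntrk2 (62.8% GC) and Gfra1 (52.4% GC) had none. Of 27025 promoters of this length 32.9% held a GC box, and their median GC content was 52.0%. No TATA box (TATAAA, either strand) was found in the 3 windows, against 13.0% of all promoters. E boxes (CANNTG, a palindrome) numbered 1 in Ntrk2, 2 in Ngfr and 3 in Gfra1, and 66.0% of all promoters held at least 1. These counts describe the letters in the windows and say nothing of which factors bind there.

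Gfra2 encodes the co-receptor for neurturin. It was at 52.1, 58.8 and 50.8 FPKM in LAS libraries, against 56.1, 62.1 and 51.4 FPKM in sham libraries. Replicate 2 was the highest library of each group, as it was for Ret. The log2 difference between the groups was -0.07 ± 0.089 (SE; limma adjusted p = 1.00), and -0.13 without sham replicate 3 (95% interval -0.32 to 0.05, adjusted p = 0.59 from limma). Of 17 tested markers of non-peptidergic and C low-threshold neurons, which carry GFRα2, 9 were higher and 8 lower, and none reached an unadjusted p of 0.05.

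Gfra3, the co-receptor for artemin, was the most variable of the 8, with a residual SD of 0.24 on the log2 scale. It was at 30.4, 31.2 and 30.2 FPKM in LAS libraries, against 34.8, 38.5 and 24.5 FPKM in sham libraries. The spread came from the sham side: sham replicate 2 was the highest and sham replicate 3 the lowest of the 6 libraries, while the LAS values were nearly equal. Over 6 libraries the log2 difference between the groups was -0.06 ± 0.16 (SE; limma adjusted p = 1.00). Without sham replicate 3 it was -0.26 (95% interval -0.39 to -0.12, unadjusted p = 0.0030, adjusted p = 0.34 from limma), a level 16.3% lower in LAS libraries, with no overlap. It was 0.07 when sham replicate 2 was left out instead, so its direction depended on which sham libraries were kept. Without sham replicate 3, the bone marrow myeloid and red cell lists were higher in LAS libraries. Their part in the Gfra3 difference was not tested.

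The markers of peptidergic neurons, the class in which GFRα3 is most abundant, are given beside it. Of 17 tested, 11 were higher and 6 lower in LAS than in sham ganglia, and 1 reached an unadjusted p of at most 0.05. That gene, Kit, the receptor for stem cell factor, was at 16.4, 18.1 and 16.8 FPKM in LAS libraries, against 18.7, 20.7 and 18.5 FPKM in sham libraries. Without sham replicate 3, 8 of the 17 were higher and 9 lower (median log2 fold change -0.005, against 0.02 over all tested genes). Calca, which encodes CGRP, had a log2 fold change of -0.004 (adjusted p = 1.00 from limma). In sham replicate 3 the mean log2 level of the peptidergic list, in which each gene weighs equally, stood at -0.20 relative to the other 5 libraries. Gfra3 stood at -0.43 on that scale. The summed FPKM of the list was not low there, at 1463 FPKM, against 1309 to 1488 FPKM in the other 5 libraries. Calca made up 993 FPKM of it in sham replicate 3. Dividing each library by its neuronal marker level left the Gfra3 difference without sham replicate 3 at -0.25. That level was nearly the same in the 5 remaining libraries (deviations of -0.001 to 0.02 on the log2 scale), so the division could change little. Its markers are of neurons in general, and the share of peptidergic neurons was not tested.

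**Figure D2:**
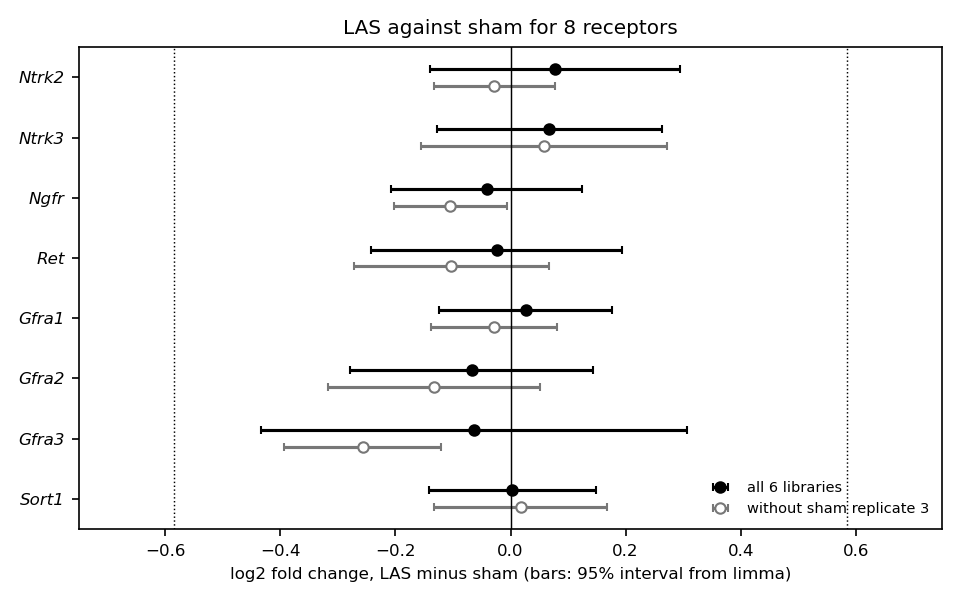
Log2 fold change (x axis, LAS minus sham) of the 8 receptors (rows) with the 95% interval from limma, for all 6 libraries (filled) and without sham replicate 3 (open); dotted lines mark a 1.5-fold change. No interval reaches either dotted line, and without sham replicate 3 the intervals of Gfra3 (-0.39 to -0.12) and Ngfr (-0.20 to -0.01) lie below 0 before adjustment over all genes.

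Ratios between receptors within a library do not depend on its depth, and 7 were compared by an exact two-sided permutation test over libraries, in which the smallest p that 3 against 3 can give is 0.10. Ret per Gfra2 was at 2.22, 2.01 and 2.07 in LAS libraries, against 2.04, 2.07 and 2.00 in sham libraries (exact permutation p = 0.40, adjusted p = 1.00 over 7 ratios). The ratio thus stayed close to 2 in each library although both genes varied. Ret per summed Gfra1, Gfra2 and Gfra3 was between 0.864 and 0.932 in LAS libraries and between 0.863 and 0.912 in sham libraries. Gfra3 per Gfra2 was at 0.584, 0.531 and 0.595 in LAS libraries, against 0.621, 0.620 and 0.475 in sham libraries (exact permutation p = 1.00). Ntrk2 per Ntrk3 was at 3.30, 3.39 and 3.19 in LAS libraries, against 3.19, 3.84 and 2.86 in sham libraries (exact permutation p = 0.90). With all libraries the groups overlapped in all 7 ratios, and each had an adjusted p of 1.00 by that exact test. With sham replicate 3 left out, Gfra3 per Gfra2 was lower in each LAS library than in both sham libraries (log2 difference -0.124). Ret per Gfra3 was then higher, at 3.80, 3.79 and 3.48 in LAS libraries, against 3.29 and 3.33 in sham libraries (log2 difference 0.155). The groups of the other ratios still overlapped.

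In each of the 8 receptors the difference between LAS and sham was smaller than the residual SD between replicates, and part of the variation between libraries was shared. Ntrk2, Ngfr, Ret, Gfra1 and Gfra3 were lowest in sham replicate 3, as were 25.0% of all tested genes. None of the 8 was highest there, against 33.4% of all tested genes. Relative to the mean of the other 5 libraries on the log2 scale, the 5 genes stood between -0.43 (Gfra3) and -0.13 (Ngfr) in that library, while the neuronal marker list stood at -0.05. As a description over 6 libraries, Pearson's r was 0.94 for Ngfr and Gfra3, 0.90 for Ntrk2 and Gfra1, and 0.89 for Ret and Gfra2. Sort1 had an r between -0.63 (Ret) and -0.26 (Ntrk2) with the other receptors except Ntrk3, with which it had 0.62. Ntrk3 had an r between -0.53 (Gfra2) and 0.34 (Gfra1) with the receptors other than Sort1. All these values share the same libraries, sham replicate 3 included.

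**Figure D3:**
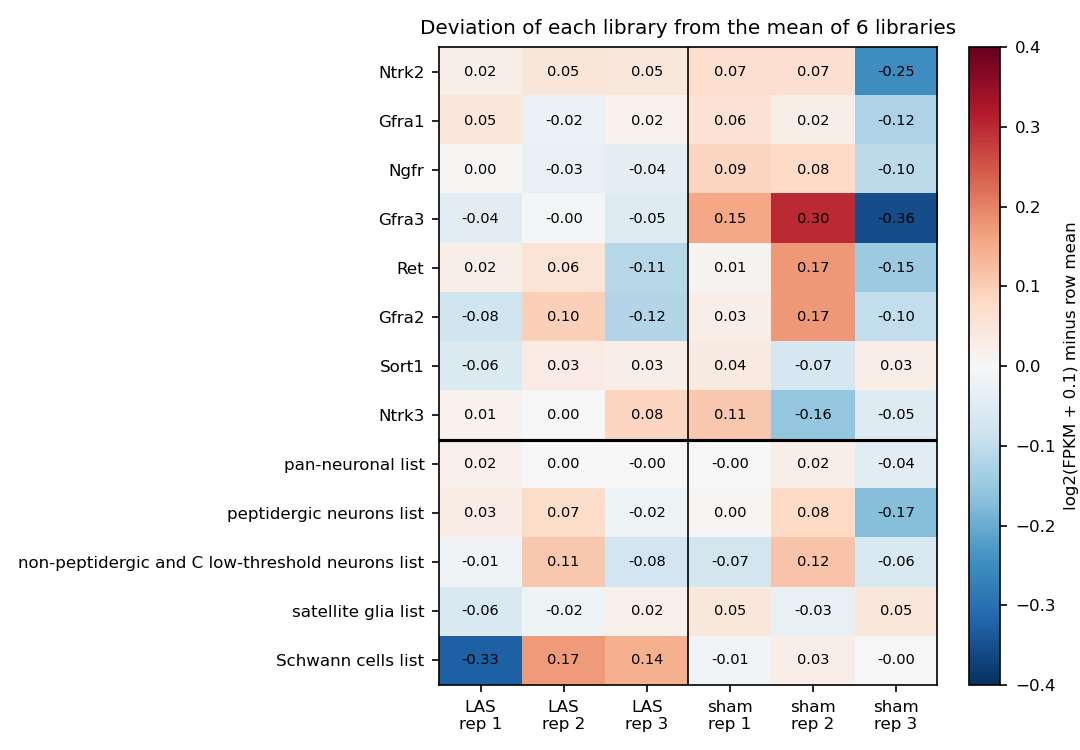
Deviation of log2(FPKM + 0.1) in each library (columns, LAS left and sham right) from the mean of the 6 libraries, for the 8 receptors (above the line) and for the mean of 5 marker lists (below it). Sham replicate 3 is low for Gfra3 (-0.36) and Ntrk2 (-0.25) but only -0.04 for the pan-neuronal list.

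Among 14006 tested genes, those whose profile was most like a member's are given as a description. They were Kcna6, a potassium channel, for Gfra3 (r = 0.998), Kirrel3, a cell adhesion molecule, for Gfra2 (r = 0.997), Rcn1 for Sort1 (r = 0.998), Arl13b for Gfra1 (r = 0.996), Cep170 for Ntrk2 (r = 0.993) and Cd46 for Ntrk3 (r = 0.992). For Ngfr it was Slc43a2 and for Ret it was 1700020D05Rik (r = 0.992 each). Kcna6 was at 31.3, 32.3 and 31.6 FPKM in LAS libraries, against 34.1, 36.3 and 27.4 FPKM in sham libraries, the same order of libraries as Gfra3 except that LAS replicates 1 and 3 changed places. Each named gene is the top of 14006 genes ranked over only 6 libraries.

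The ligands of these receptors were mostly scarce in the ganglion, and the pair with the smallest p were both higher in LAS libraries before adjustment. Nrtn, neurturin, the GFRα2 ligand, was at 1.33, 1.77 and 1.69 FPKM in LAS libraries, against 1.04, 0.97 and 0.72 FPKM in sham libraries. Its groups did not overlap, and the log2 difference between the groups was 0.75 ± 0.19 (SE; unadjusted p = 0.0058, limma adjusted p = 1.00), and it was 0.61 without sham replicate 3. Bdnf, the TrkB ligand that DRG neurons themselves make, was at 7.79, 8.17 and 9.19 FPKM in LAS libraries, against 6.87, 7.58 and 6.38 FPKM in sham libraries. Its groups did not overlap either (log2 fold change 0.27 ± 0.096, SE; unadjusted p = 0.026, adjusted p = 1.00 from limma), and the difference was 0.21 (unadjusted p = 0.059 from limma) with sham replicate 3 left out. Neither passed after adjustment over all genes.

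The groups overlapped for Ntf3, which encodes neurotrophin 3 and was at 0.44 to 0.80 FPKM in LAS and 0.35 to 0.59 FPKM in sham libraries. Ntf5, Gdnf, Artn and Pspn, which encode neurotrophin 4, GDNF, artemin and persephin, were below the level needed for testing. Gdnf was at 0.03 to 0.08 FPKM in LAS and 0.05 to 0.09 FPKM in sham libraries, so its receptor pair Gfra1 and Ret was abundant where the ligand transcript was near the limit of the 2-decimal values.

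**Figure D4:**
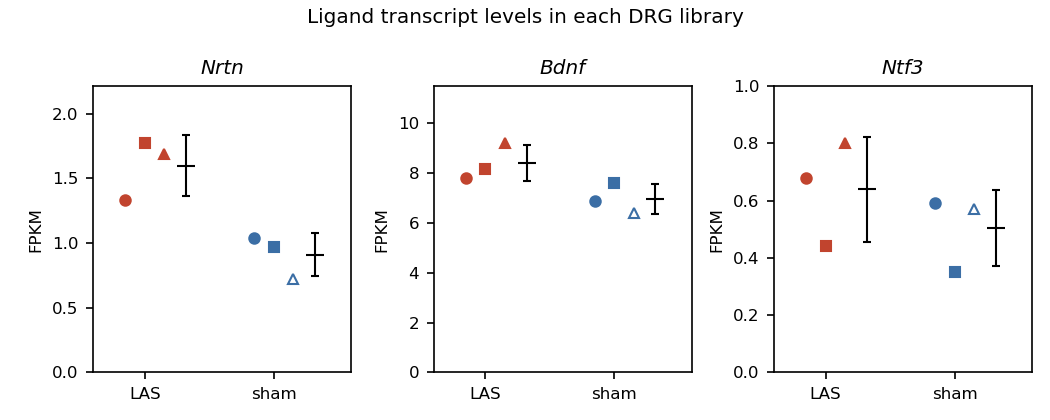
FPKM (y axis, from 0) of 3 ligand genes in LAS (left, red) and sham (right, blue) libraries; circles, squares and triangles are replicates 1, 2 and 3, the open triangle is sham replicate 3, and the black mark is the group mean with its SD (n = 3). The LAS points of Nrtn and Bdnf all lie above their sham points, while those of Ntf3 overlap.

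The other receptors and co-receptors of the families were even on balance. Of 14 tested, 7 were higher and 7 lower in LAS libraries, the median log2 fold change was 0.001, and the whole range was -0.06 to 0.23. Without sham replicate 3, 6 were higher and 8 lower, with a median of -0.04, against 0.02 over all tested genes. Gfra4, the persephin co-receptor, was at 15.7, 14.5 and 13.4 FPKM in LAS libraries, against 14.3, 14.1 and 17.3 FPKM in sham libraries. It was highest in sham replicate 3, and its log2 difference was -0.06 with that library and 0.03 without it. Lrig2 encodes a transmembrane protein of neurons and other cells, and it was the gene of this list with an unadjusted p of at most 0.05. It was at 7.14, 6.21 and 6.57 FPKM in LAS libraries, against 5.75, 6.08 and 5.09 FPKM in sham libraries (log2 fold change 0.23, adjusted p = 1.00 from limma), and without sham replicate 3 the difference was 0.16 (unadjusted p = 0.10 from limma). Sdc3, syndecan 3, which binds GDNF family ligands and was the most abundant of the list, was at 67.6 ± 2.13 FPKM in LAS and 67.6 ± 7.82 FPKM in sham libraries (SD, n = 3 each).

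Downstream of the receptors, 2 of 41 adaptor and early kinase genes had an unadjusted p of at most 0.05, 1 in each direction, and 0 passed after adjustment. Dok5, an adaptor that binds activated RET and Trk receptors, was at 3.43, 3.37 and 3.52 FPKM in LAS libraries, against 4.10, 4.04 and 4.50 FPKM in sham libraries (log2 fold change -0.28, standard error 0.084, adjusted p = 1.00 from limma). Its groups did not overlap. Those of Mapk3, a kinase of the ERK cascade and the most abundant gene of the list, overlapped (log2 fold change -0.04).

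Genes induced by ERK signaling and neurotrophins were lower for 15 of 22 and higher for 7 in LAS libraries, with a median log2 fold change of -0.08, and 1 had an unadjusted p of at most 0.05. Without sham replicate 3, 13 were lower and 9 higher, with a median of -0.03. Of all tested genes, 5867 were lower and 8139 higher in that comparison, with a median of 0.02. The gene with that p, the immediate early gene Fos, was at 1.93, 1.87 and 1.77 FPKM in LAS libraries, against 3.11, 2.30 and 2.41 FPKM in sham libraries (log2 fold change -0.46, standard error 0.14, adjusted p = 1.00 from limma). Vgf, a secreted neuropeptide precursor that neurotrophins induce, was at 75.5 ± 8.28 FPKM in LAS and 67.6 ± 7.62 FPKM in sham libraries (SD, n = 3 each). Dusp6, an ERK phosphatase that ERK itself induces, was at 6.44 to 6.58 FPKM in LAS and 6.78 to 7.03 FPKM in sham libraries with no overlap (log2 fold change -0.08, adjusted p = 1.00 from limma). It was named after its values were seen.

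Of 19 genes of receptor turnover and trafficking, 12 were higher and 7 lower, with a median log2 fold change of 0.01 (0.03 without sham replicate 3). Rab5a, a GTPase of early endosomes, through which activated Trk receptors pass, was at 52.1, 49.9 and 53.1 FPKM in LAS libraries, against 44.1, 45.4 and 47.3 FPKM in sham libraries. Its groups did not overlap (log2 fold change 0.18, standard error 0.054, unadjusted p = 0.013, adjusted p = 1.00 from limma). The transcripts of injured neurons, which include Atf3, Sprr1a and Gal, gave 0 of 13 tested genes at an unadjusted p of at most 0.05, with a median log2 fold change of -0.02 (-0.0009 without sham replicate 3).

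**Figure D5:**
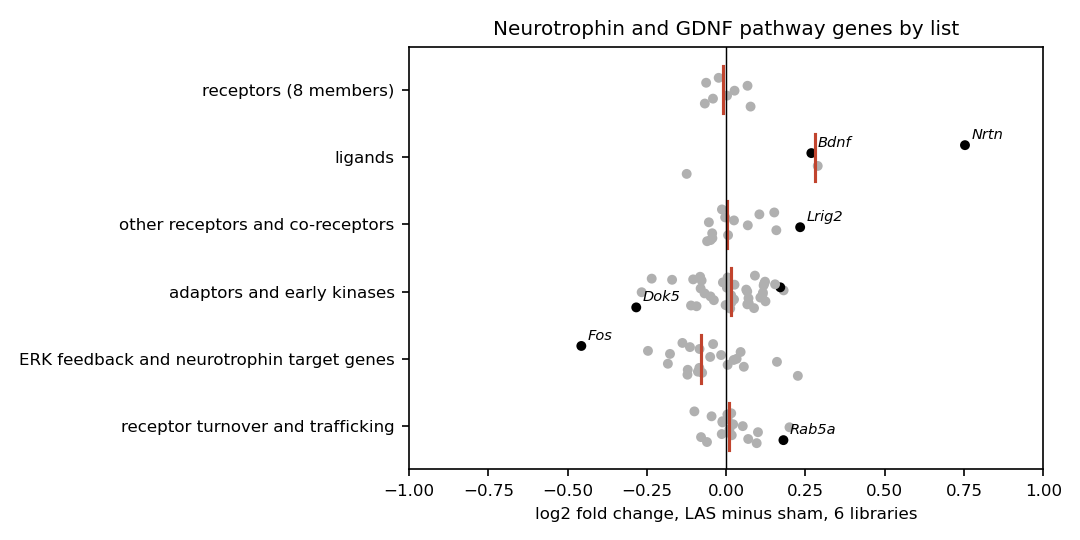
Log2 fold change (x axis, LAS minus sham, 6 libraries) of each tested gene in the receptor list and 5 pathway lists (rows); black points have an unadjusted p of at most 0.05 from limma, gray points do not, and red bars are list medians. The 8 receptors span -0.07 to 0.08, while the ligand Nrtn lies at 0.75 and Fos at -0.46.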

How the data were processed

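RNA-Seq was performed on 6 DRG libraries (3 LAS and 3 sham, day 14). The authors sequenced them on the BGISEQ platform and aligned the reads to the mouse genome. They deposited FPKM (fragments scaled to gene length and to the mapped fragments of the library), 1 column per library, with 2 decimals. Neither the aligner nor the genome build was named in the methods and labels read here. FPKM are not counts, so no counting interval was given, and since replicates may be technical, p-values cover only the spread among libraries. The 3 columns holding the authors' own comparison (p-value, q-value and log2 fold change) were left out.

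Group differences were tested with limma (version 3.58.1; R version 4.3.3) on log2(FPKM + 0.1), with a trend of variance on mean level, for the 14006 genes that reached 0.5 FPKM in 3 or more libraries. The added 0.1 shrinks the differences of weakly expressed genes. Benjamini-Hochberg adjustment covered all 14006. Ratios between members were compared by exact permutation in SciPy 1.17.1. The fit was tested on simulated data with noise drawn independently for each gene. No simulated library stood apart in many genes together, as sham replicate 3 does, so that case was not tested. Promoter sequences are from RefSeq (GRCm38.p6) and serve only as sequence, as the files name no build.

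The members and the 20 gene lists, members included, were chosen with earlier results of these data known. Named genes are the members, the 2 genes of each list with the smallest p and the 1 with the highest level, and the 2 genes closest in profile to each member, not all of which are given. Some genes of the lists are not reported here. Other pseudocounts, filters, scalings and variance models, array weights, a replicate block and the removal of each library in turn were tried.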

Additional observations from a re-analysis of the deposited data

How the results depend on the processing

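No gene and none of the 8 receptors was called with any other pseudocount, filter, scaling or variance model, with a lower or higher fold minimum, or with any library left out. Limits are the 3 libraries a group, with sham replicate 3 apart from the rest, and FPKM to 2 decimals limits the scarce ligands. With the replicate number as a block, 0 genes and 0 receptors were called. Deviations of same-numbered libraries from their group means correlated at -0.407, 0.238 and -0.151, and 1 of 3 LAS libraries correlated best with its own number. These values cannot decide whether the numbers pair the libraries. Each group mean held 3 libraries, and sham replicate 3 stood apart from the other sham libraries. The count of receptors whose groups did not overlap was 0 with all libraries, 0 to 3 with a library left out, and 2 (both lower) with neuronal scaling without sham replicate 3, an alternative chosen after seeing the data, where 18.7% of all tested genes were higher and 10.7% lower without overlap. The log2 differences near 0 changed sign in places. Array weights gave -0.0071 for Ntrk2, -0.016 for Gfra1 and -0.067 for Sdc3, and moved Ngfr to -0.097, Ret to -0.126, Gfra2 to -0.155 and Gfra3 to -0.232 without a call. Quantile scaling gave 0.010 for Ngfr and -0.0021 for Sort1, and median centring gave -0.0024 for Sort1. Neuronal scaling gave -0.010 for Sort1, -0.0068 for Sdc3 and -0.0023 for the clathrin adaptor gene Ap2m1, and without sham replicate 3 it gave -0.023 for Ntrk2, -0.023 for Gfra1 and -0.088 for Sdc3. With a library left out in turn, the lowest and highest log2 differences were -0.028 and 0.130 for Ntrk2, 0.0059 and 0.137 for Ntrk3, -0.104 and -0.0090 for Ngfr, -0.103 and 0.056 for Ret, -0.028 and 0.062 for Gfra1, -0.134 and 0.0020 for Gfra2, -0.257 and 0.070 for Gfra3, -0.030 and 0.031 for Sort1, -0.094 and 0.060 for Sdc3, and -0.023 and 0.070 for Ap2m1. For the ratios they were -0.102 and 0.012 for Ret per Gfra1, -0.023 and 0.155 for Ret per Gfra3, -0.124 and 0.069 for Gfra3 per Gfra2, -0.087 and 0.124 for Ntrk2 per Ntrk3, and -0.122 and 0.019 for Ngfr per Sort1. The cause of these sign changes was not tested.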
